A study of Mus musculus with 18 samples.

Results

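The STAT genes encode the transcription factors through which cytokine receptors reach the genome. The members described here are *Stat2*, *Stat3*, *Stat4*, *Stat5a*, *Stat5b* and *Stat6*, chosen by gene symbol and found as 6 of the 20298 genes in the deposited table. The cells were mouse Ly6C+ CCR2+ monocytes of strain C57BL/6, either WT or DKI. In DKI (double knockin) mice the N-domain of each STAT5 protein is altered in the endogenous *Stat5a* and *Stat5b* genes, so that STAT5 dimers form but tetramers do not, in every cell that uses these genes and not in monocytes alone. Cells of each genotype were taken untreated (day 0) or after 3 or 6 days of culture in GM-CSF at 20 ng/mL, with 3 libraries in each of the 6 groups. Cultured cells are called monocyte-derived cells (MDCs). The day 0 cells were an enriched and not a pure population, and no age or sex of the mice is used here.

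STAT proteins wait in the cytoplasm until a Janus kinase (JAK) bound to an activated cytokine receptor phosphorylates them. They then pair through their SH2 domains, enter the nucleus and bind short palindromic DNA elements, and pairs of STAT5 dimers can join through their N-domains into tetramers on neighbouring elements. GM-CSF, a growth factor for myeloid cells, signals mainly through JAK2 and STAT5, whereas the other members answer other cytokines: STAT2 the type I interferons, STAT3 the IL-6 and IL-10 families, STAT4 IL-12 and type I interferons, and STAT6 IL-4 and IL-13.

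The libraries held an estimated 29.5 M to 43.2 M mapped reads. Levels are given in RPKM, in which reads are divided by gene length and by the library's mapped reads, so that genes can be compared with each other. The values of the 6 members rested on at least 1077 reads per library, except for *Stat4*, which had between 91 and 7453. As tissue the labels give liver, but the series description and the methods give bone marrow. The summed level of 6 hepatocyte genes was 0.634 RPKM or less in each library, and 6 monocyte genes summed to between 11300 and 17900 RPKM on day 0. Replicate 1 of the DKI MDCs stood apart on both days. Its 10 interferon-stimulated genes summed to 4590 RPKM on day 3 and 2020 RPKM on day 6, against 32.3 to 109 RPKM in WT MDCs, and its library name carries an earlier year than those of the other replicates, as does that of WT MDC replicate 1. RNA came from whole cultures, so more RNA per cell and more cells of a type cannot be told apart in any of these values.

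Before GM-CSF no member differed between the genotypes beyond the spread of its libraries. Within same-numbered pairs, *Stat5b* (0.935 to 0.951 of WT) and *Stat5a* (0.904 to 0.991) were slightly lower in DKI each time, and the other members went both ways. With the replicate number as a block, 0 members passed. *Stat6* and *Stat3* had the highest mean levels, followed by *Stat5b*, *Stat5a*, *Stat2* and *Stat4*. In WT monocytes, *Stat6* was at 86.2 ± 9.48 RPKM (SD, n = 3) and *Stat3* at 69.9 ± 14.0 RPKM, and their ranges overlapped. *Stat5b* followed at 31.0 ± 6.92 RPKM, *Stat5a* at 14.5 ± 2.21 RPKM, *Stat2* at 10.9 ± 5.04 RPKM and *Stat4* at 3.44 ± 0.988 RPKM. Of these neighbours, *Stat5a* and *Stat2* also overlapped. The order of the means was the same in DKI monocytes, where *Stat6* and *Stat3* did not overlap and *Stat5a* and *Stat2* did. DKI minus WT log2 differences lay between -0.10 (*Stat4*) and 0.06 (*Stat3*), 0 of 6 members passed the test (adjusted p below 0.05 in limma and a fold above 1.5, the limits used throughout), and the WT and DKI ranges of all 6 overlapped. The background was 0% of 9179 genes called and 1.03% with groups that did not overlap. The count of genes with an unadjusted p under 0.05 was 44.

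**Figure D1:**
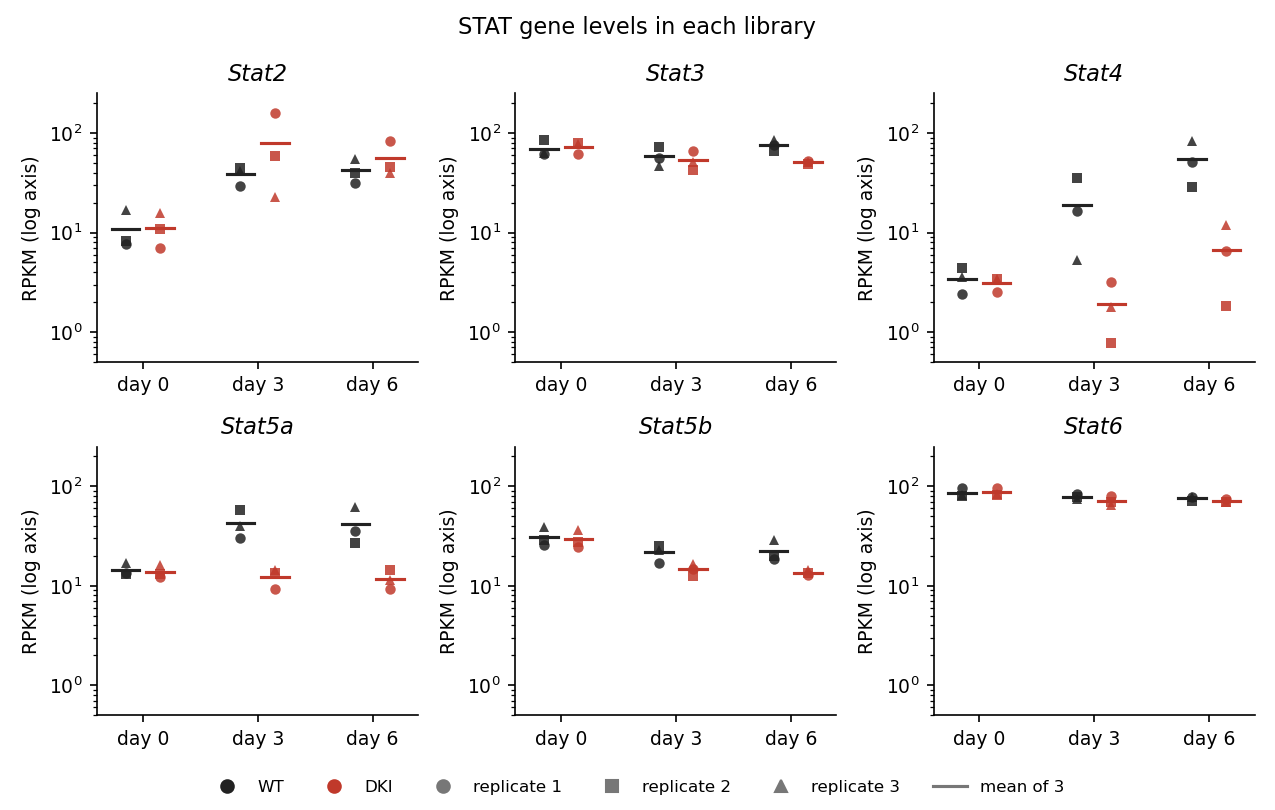
RPKM of the 6 STAT genes (log axis) in each of the 18 libraries, by day, with WT in black and DKI in red. Symbols mark the replicate number and lines the mean of 3. *Stat5a* and *Stat4* separate by genotype on days 3 and 6, *Stat3* and *Stat6* stay within 42.7 to 97.0 RPKM in all libraries, and the highest *Stat2* value, 158 RPKM, is DKI replicate 1 on day 3.

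In GM-CSF the order of the members was not the same in the 2 genotypes. In WT MDCs on day 3 it was *Stat6* (78.7 RPKM on average), *Stat3* (58.6), *Stat5a* (42.6), *Stat2* (38.6), *Stat5b* (21.7) and *Stat4* (18.9). The steps from *Stat6* to *Stat3* and from *Stat2* to *Stat5b* were the ones without overlap between libraries. By day 6 the WT order was *Stat3* (76.2), *Stat6* (75.6), *Stat4* (54.3), *Stat2* (42.2), *Stat5a* (41.6) and *Stat5b* (22.6), with overlap at each step. In DKI MDCs on day 3, *Stat2* had the highest mean (79.8 RPKM), followed by *Stat6* (71.5) and *Stat3* (53.5), but it was above *Stat6* in 1 library, replicate 1. On day 6 the order of these means was *Stat6* (70.9), *Stat2* (56.5) and *Stat3* (51.2), and *Stat2* was above *Stat3* in 1 library, again replicate 1. *Stat4* had the lowest DKI mean on both days, 1.92 and 6.73 RPKM, although on day 6 it overlapped *Stat5a* and was above it in replicate 3, and *Stat5b* stayed above *Stat5a* on average, with overlap (14.6 against 12.4 RPKM on day 3, and 13.5 against 11.7 RPKM on day 6).

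Both STAT5 genes carry the knockin. They lie on chromosome 11 in mm10 with *Stat5b* at chr11:100780731-100859004, *Stat5a* at chr11:100859351-100885169 and *Stat3* next to them at chr11:100886806-100939594. The gene bodies of *Stat5b* and *Stat5a* are separated by 346 bases and those of *Stat5a* and *Stat3* by 1636 bases. *Stat6* (chr10:127642955-127660987) and *Stat2* (chr10:128270498-128292853) lie 610 kb apart, and *Stat4* is at chr1:51987106-52107189. STAT5A and STAT5B are close relatives that bind the same DNA elements. Their genes are similar in sequence, and how the authors' counting placed reads that match both genes is not given in the sources used here, so a part of the reads of one could stand under the other.

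*Stat5a* rose in WT cells, whereas its DKI values in culture overlapped those of day 0. WT monocytes had 13.4, 13.1 and 17.1 RPKM (replicates 1 to 3) and DKI monocytes 12.1, 13.0 and 16.1 RPKM. On day 3, WT MDCs had 30.2, 58.0 and 39.7 RPKM and DKI MDCs 9.37, 13.4 and 14.4 RPKM. On day 6 the values were 35.2, 27.2 and 62.4 RPKM in WT and 9.22, 14.4 and 11.4 RPKM in DKI. Each WT MDC library was above each DKI MDC library, and 3 of the 6 DKI MDC values lay below each monocyte library, the other 3 within the monocyte range. The DKI mean was 0.291 of the WT mean on day 3, a log2 difference of -1.67 ± 0.28 (SE, adjusted p = 0.0224), and 0.280 of it on day 6, a log2 difference of -1.68 ± 0.32 (adjusted p = 0.0357). Within same-numbered pairs, WT exceeded DKI between 2.75 and 4.33 times on day 3 and between 1.88 and 5.49 times on day 6. The adjusted p rose above 0.05 on day 3 without WT replicate 2 (0.0592), WT replicate 3 (0.0754) or DKI replicate 2 (0.0509), and on day 6 without WT replicate 1 (0.106), WT replicate 3 (0.0784), DKI replicate 1 (0.0798) or DKI replicate 3 (0.106). With the replicate number as a block it was 0.0239 on day 3 and 0.0516 on day 6.

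*Stat5b* fell in culture in DKI cells, and its lower values in cultured WT cells did not pass the test. WT monocytes had 25.6, 28.7 and 38.8 RPKM and DKI monocytes 24.3, 27.3 and 36.3 RPKM. On day 3 it was at 17.1, 25.2 and 22.8 RPKM in WT and at 14.8, 12.6 and 16.5 RPKM in DKI, and on day 6 at 18.7, 20.1 and 29.0 RPKM in WT and at 12.8, 13.3 and 14.4 RPKM in DKI. The DKI libraries were below the WT libraries on both days without overlap. The genotype difference did not pass the test on day 3 (log2 difference -0.53 ± 0.19, adjusted p = 0.143) or on day 6 (-0.68 ± 0.19, adjusted p = 0.0767). With all 18 libraries in one fit the day 6 adjusted p was 0.0345, the 1 of 16 alternative settings in which it passed. The highest adjusted p among these settings was 0.232, and with the replicate number as a block it was 0.0617.

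*Stat4* differed most between the genotypes in fold and varied most between libraries. STAT4 is best known for driving the IL-12 response of T and NK cells, and it is also made by activated monocytes and dendritic cells. WT monocytes had 2.40, 4.37 and 3.56 RPKM and DKI monocytes 2.50, 3.39 and 3.43 RPKM. The WT MDC libraries of day 3 had 16.4, 35.1 and 5.24 RPKM against 3.20, 0.775 and 1.80 RPKM in the DKI libraries, and those of day 6 had 51.4, 29.0 and 82.6 RPKM against 6.47, 1.82 and 11.9 RPKM. Each WT MDC library was above each DKI MDC library of its day, though WT replicate 3 on day 3 was close to the DKI values. WT exceeded DKI by between 2.91 and 45.3 times within the day 3 pairs and by between 6.94 and 15.9 times within the day 6 pairs. On day 3 the log2 difference was -2.52 ± 0.65 and did not pass the test (adjusted p = 0.0709), and on day 6 it was -2.97 ± 0.62 and passed it (adjusted p = 0.0410). The day 3 difference passed with all 18 libraries in one fit (adjusted p = 0.0121) and without WT replicate 3 (-3.19, adjusted p = 0.0472), and it was -1.92 without WT replicate 2. Without DKI replicate 2 the day 6 difference was -2.37 and passed. The day 6 difference did not pass without WT replicate 1 (0.126), WT replicate 3 (0.137), DKI replicate 1 (0.0808) or DKI replicate 3 (0.0727). It also did not pass with centring on the library median (0.0583), with quantile normalization (0.0557) or in voom on recovered reads (0.0547). The same held without the filter on mean RPKM (0.0831) and without replicate 1 of both genotypes (0.217). With the replicate number as a block the adjusted p was 0.101 on day 3 and 0.0104 on day 6. With all 18 libraries in one fit the day 6 value was 0.00401.

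Markers of cells that use *Stat4* were examined beside it. Of the 6 T cell markers, *Cd3e*, *Cd3d*, *Cd8a* and *Lck* were at 0.659 RPKM or less in WT MDCs, *Cd3g* reached 2.53 RPKM and *Cd4* 1.5 RPKM. *Cd8a* did not overlap between WT MDCs (0.0634 to 0.603 RPKM) and DKI MDCs (0 to 0.0319 RPKM). The NK cell genes *Ncr1*, *Gzma* and *Prf1* were at 0 in all 6 WT MDC libraries. The summed level of the 6 NK cell markers was 3.75 to 19.1 RPKM in WT MDCs and 0.628 to 4.90 RPKM in DKI MDCs, of which *Klrk1*, also known from activated myeloid cells, made up to 18.8 RPKM. Summed, the T cell markers were between 1.05 and 3.71 RPKM in WT MDCs and between 0.561 and 59.9 RPKM in DKI MDCs, where *Cd4* alone reached 53.2 and 59.4 RPKM in replicate 1. The 5 dendritic cell markers (*Zbtb46*, *Flt3*, *Ccr7*, *Cd209a* and *Batf3*) summed to between 261 and 967 RPKM in WT MDCs and between 21.1 and 95.6 RPKM in DKI MDCs, with none at 0 in any group. *Zbtb46* (9.73 to 16.6 RPKM in WT and 1.65 to 6.59 RPKM in DKI) did not overlap between the genotypes, whereas *Flt3* (0.457 to 3.2 and 0.585 to 1.15 RPKM) did. The 5 macrophage markers were higher in DKI MDCs (759 to 1570 RPKM) than in WT MDCs (197 to 556 RPKM). The 6 monocyte markers summed to between 8960 and 21400 RPKM in DKI MDCs, around their day 0 levels, and to between 1510 and 4140 RPKM in WT MDCs. The 6 neutrophil markers summed to between 766 and 1390 RPKM in DKI and between 108 and 745 RPKM in WT on day 3, to between 479 and 845 and between 101 and 499 RPKM on day 6, and to between 952 and 1360 RPKM on day 0. The 4 plasmacytoid dendritic cell markers summed to 1250 and 968 RPKM in replicate 1 of the DKI MDCs, the library with the highest *Stat2*, against 127 to 250 RPKM in the other DKI MDCs and 84 to 196 RPKM in WT MDCs. Of the 4, *Ly6d* was at 0 in all DKI libraries of day 6. The sum was not split by gene, so it does not show whether such cells were present. The part of these cell states in the STAT differences was not tested.

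The start of the shorter *Stat4* transcript holds 1 match to the core of the interferon-stimulated response element (ISRE), the DNA element bound by STAT2 complexes and by interferon regulatory factors. It is shown because *Stat4* was the member with the widest range, with the match in capitals (RefSeq sequence, GRCm38.p6, plus strand, chr1:52008090-52008189, bases -150 to -51 from that start, inside an intron of the longer transcript).
*Stat4*, 5′ to 3′: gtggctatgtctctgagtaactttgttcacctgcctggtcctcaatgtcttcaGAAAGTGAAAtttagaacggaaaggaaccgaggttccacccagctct

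*Stat2* rose in culture in both genotypes. STAT2 joins IRF9 in the factor that carries type I interferon signals to ISRE sites, and *Stat2* is itself an interferon-stimulated gene. It was at 7.68, 8.31 and 16.7 RPKM in WT and 6.93, 10.7 and 15.8 RPKM in DKI monocytes. On day 3 it was at 29.3, 44.4 and 41.9 RPKM in WT and 158, 59.0 and 22.7 RPKM in DKI, and on day 6 at 31.8, 39.6 and 55.0 RPKM in WT and 84.2, 45.5 and 39.8 RPKM in DKI. The genotypes overlapped on both days, and DKI replicate 1 was the highest library each time. The DKI minus WT log2 difference was 0.64 ± 0.65 on day 3 (adjusted p = 0.568) and 0.37 ± 0.33 on day 6 (adjusted p = 0.50). Without DKI replicate 3 the day 3 value was 1.33 (adjusted p = 0.146). Without DKI replicate 1 it was -0.05 on day 3 and 0.05 on day 6, and without replicate 1 of both genotypes it was -0.23 and -0.13.

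The promoter of *Stat2* held 2 of the elements searched for, and it is shown because its 10-base matches lie 2 bases apart. The first capitals mark the ISRE core TTTCAGTTTC at bases -222 to -213 from the start, and the second mark TTCCCTAGAA, a STAT element with a 4-base spacer, at bases -210 to -201 (RefSeq sequence, GRCm38.p6, plus strand, chr10:128270248-128270347).
*Stat2*, 5′ to 3′: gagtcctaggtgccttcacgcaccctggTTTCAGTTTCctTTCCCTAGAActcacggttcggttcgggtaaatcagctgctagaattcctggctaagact

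RefSeq windows of 300 bases (250 before to 50 after a start) were found for all 6 members, 9 windows in all. Those of *Stat5b* (chr11:100822521-100822820 and chr11:100850532-100850831) lie inside its gene body, so the end of that gene body next to *Stat5a* was not searched for *Stat5b*. The classical STAT element TTCNNNGAA was in none of the 9, the form TTCNNNNGAA in 1 (*Stat2*), and the ISRE core GAAANNGAAA or, on the other strand, TTTCNNTTTC in 2 (*Stat2* and *Stat4*). Of all 32851 windows in the table, 8.3% held the first, 6.95% the second and 3.44% the ISRE core. These matches describe letters in a short window and not bound sites.

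*Stat6* and *Stat3* had the narrowest ranges of the 6 members. STAT3 carries IL-6, IL-10 and G-CSF signals, and STAT6 carries the IL-4 signal to alternatively activated macrophages. *Stat3* ranged from 42.7 to 86.2 RPKM over all 18 libraries, a span of 2.02 times. On day 6 it was at 76.1, 66.5 and 86.2 RPKM in WT and at 52.5, 49.4 and 51.8 RPKM in DKI, without overlap, but the difference did not pass the test (log2 -0.56 ± 0.15, adjusted p = 0.0749). On day 3 the groups overlapped, with a log2 difference of -0.13 ± 0.24 (adjusted p = 0.769). *Stat6* ranged from 65.5 to 97.0 RPKM, a span of 1.48 times. Its log2 difference was -0.14 (95% interval -0.51 to 0.22) on day 3 and -0.09 (-0.42 to 0.24) on day 6, with adjusted p of 0.595 and 0.690. Centring on the library median or quantile normalization turned the day 6 value to 0.05 and 0.01.

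Counted over the family, 1 of 6 members (*Stat5a*) was lower in DKI on day 3, where 4.21% of 9740 genes were called lower, and 2 of 6 (*Stat4* and *Stat5a*) on day 6, where 4.82% of 9842 genes were. No member was called higher, against 3.21% and 2.72% of genes. WT and DKI did not overlap, with DKI lower, for 3 members on day 3 (*Stat4*, *Stat5a* and *Stat5b*) and 4 on day 6 (these and *Stat3*), against 22.9% and 26.6% of all genes tested. The median log2 difference of all genes tested was -0.11 on day 3 and -0.17 on day 6. Centring on the library median changed the day 6 split of all called genes from 268 higher and 474 lower to 323 higher and 285 lower.

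**Figure D2:**
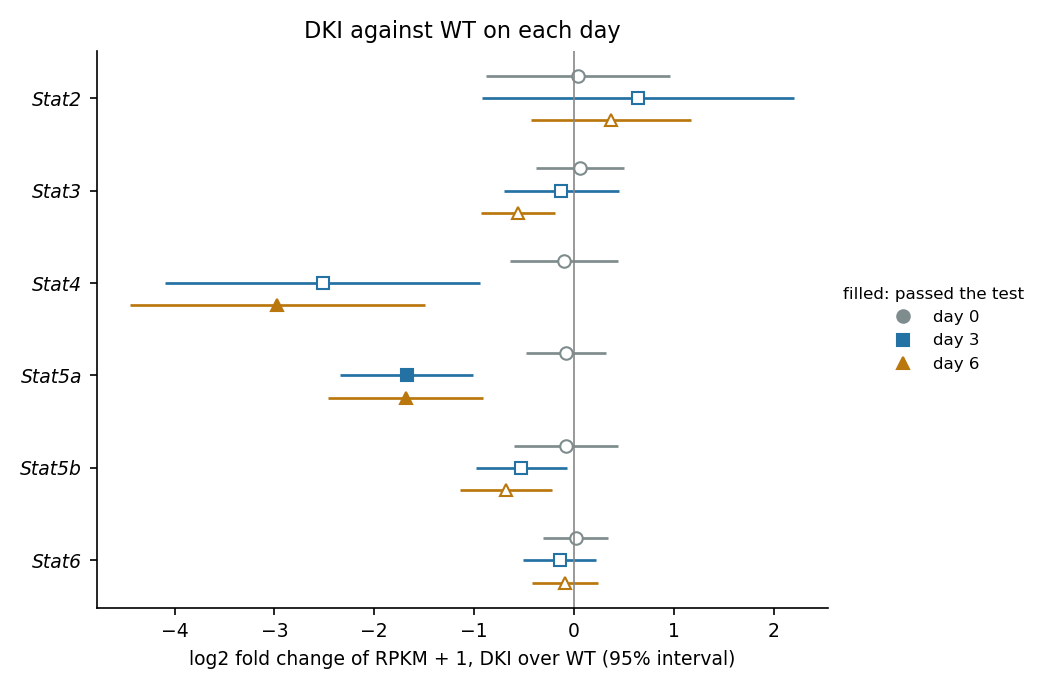
Log2 fold change of RPKM + 1, DKI over WT, for each STAT gene on days 0, 3 and 6, with its 95% interval from limma. Filled symbols passed the test: *Stat5a* on day 3 (-1.67) and on day 6 (-1.68) and *Stat4* on day 6 (-2.97).

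The balance between the STAT5 genes was compared inside each library, where library scaling drops out. On day 0 *Stat5a* made up 34.4, 31.4 and 30.5% of the summed *Stat5a* and *Stat5b* RPKM in WT and 33.3, 32.3 and 30.7% in DKI. Its share among WT MDCs was 63.9, 69.7 and 63.5% on day 3 and 65.4, 57.5 and 68.3% on day 6, and among DKI MDCs it was 38.7, 51.6 and 46.6% on day 3 and 41.8, 52.1 and 44.1% on day 6. *Stat5a* therefore passed *Stat5b* in each WT MDC library but only in replicate 2 of the DKI MDCs. The mean log2 ratio of *Stat5a* to *Stat5b* was -1.08 in both genotypes on day 0 (exact two-sided permutation test, p = 1). Day 3 gave 0.94 ± 0.23 (SD) for WT and -0.26 ± 0.38 for DKI, a difference of -1.20, and day 6 gave 0.82 ± 0.35 and -0.23 ± 0.31, a difference of -1.05. The exact permutation p was 0.1 on both days, the smallest that 3 against 3 libraries allow, so this test cannot reach 0.05. Summed over both genes, WT cells went from 45.6 ± 9.07 RPKM (SD, n = 3) on day 0 to 64.3 ± 18 RPKM on day 3 and 64.2 ± 23.8 RPKM on day 6, and DKI cells from 43.0 ± 8.33 RPKM to 27.0 ± 3.48 and 25.2 ± 2.89 RPKM.

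**Figure D3:**
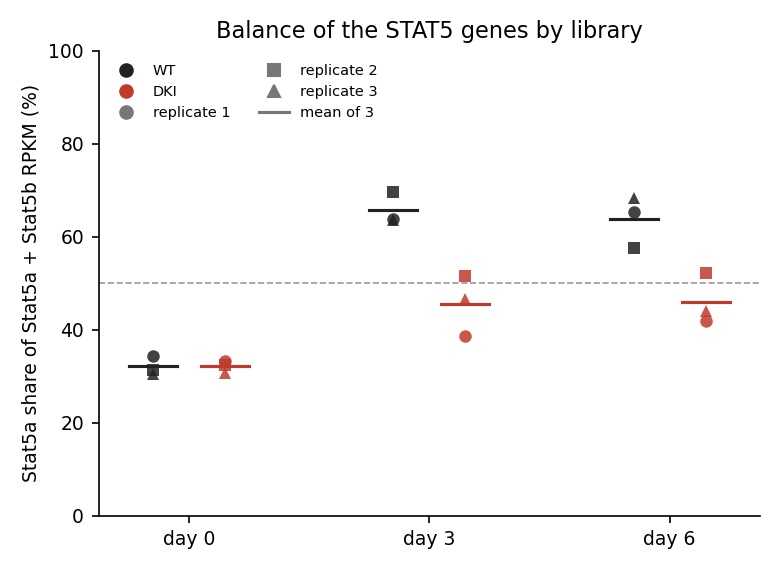
Share of *Stat5a* in the summed RPKM of *Stat5a* and *Stat5b* (%) in each library by day, WT in black and DKI in red, with lines at the mean of 3 and a dashed line at 50%. All 6 monocyte libraries lie between 30.5 and 34.4%, the WT MDC libraries between 57.5 and 69.7% and the DKI MDC libraries between 38.7 and 52.1%.

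Changes over time were tested within each genotype. No group was cultured without GM-CSF, so effects of GM-CSF, of culture and of losing other cells of the day 0 preparation cannot be told apart. Summed eosinophil markers, for example, were at 146 to 580 RPKM on day 0 and at 0.559 to 44.9 RPKM in MDCs. In WT cells, 3 of 6 members rose from day 0 to day 3, where 20.3% of 9938 genes rose. These were *Stat2* (log2 change 1.79 ± 0.31, adjusted p = 0.00356), *Stat4* (1.85 ± 0.59, adjusted p = 0.0372) and *Stat5a* (1.45 ± 0.25, adjusted p = 0.00358). The *Stat4* call was the least firm of the 3. It was lost without any one of WT day 0 replicates 1 to 3 or WT day 3 replicates 1 and 2, with adjusted p between 0.0693 and 0.0951 and log2 changes from 1.25 to 2.00, and also without the filter on mean RPKM (0.0766), in voom (0.0515) and without replicate 1 of both days (0.166). Without WT day 3 replicate 3 the change was 2.52 and passed. *Stat5b* (-0.49 ± 0.21, adjusted p = 0.0948), *Stat3* (-0.26 ± 0.22) and *Stat6* (-0.13 ± 0.14) did not pass.

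In DKI cells, 1 of 6 members rose from day 0 to day 3, where 13.1% of 9922 genes rose, and 1 fell, where 21.1% fell. *Stat2* rose (2.39 ± 0.67, adjusted p = 0.0336), and *Stat5b* fell (-0.94 ± 0.20, adjusted p = 0.0149). The *Stat2* call was lost without any one of the DKI day 0 libraries (adjusted p = 0.101, 0.0918 and 0.0599 for replicates 1 to 3) and without DKI day 3 replicate 2 (0.0747). It was also lost without the filter on mean RPKM (0.0668) and without replicate 1 of both days (log2 change 1.43, adjusted p = 0.0852). Leaving out DKI day 3 replicate 1 gave a log2 change of 1.70 and leaving out replicate 3 gave 3.07, both of which passed. *Stat5a* (-0.15 ± 0.21, adjusted p = 0.602), *Stat4* (-0.57 ± 0.34, adjusted p = 0.224), *Stat3* (-0.44 ± 0.22, adjusted p = 0.15) and *Stat6* (-0.28 ± 0.17, adjusted p = 0.229) did not pass. The median change of all genes tested in DKI was -0.16, and centring on the library median turned the split of all called genes from 1297 higher and 2097 lower to 1743 and 1622. Without DKI day 3 replicate 1, *Stat3* was lower than on day 0 by the test (log2 change -0.60, adjusted p = 0.0451).

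Between day 3 and day 6, 0 of 6 members passed in either genotype, against a background of 0% of 9613 genes in WT and 0% of 9540 genes in DKI in limma. There, 722 and 93 genes had an unadjusted p under 0.05, among them *Stat4* in WT (log2 change 1.69 ± 0.67, adjusted p = 0.649). In DKI the *Stat4* change was 1.24 ± 0.60 (adjusted p = 0.999). The WT change was 1.02 without WT day 3 replicate 3 and 2.29 without WT day 3 replicate 2, and the DKI change was 1.83 without DKI day 6 replicate 2.

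Against day 0, a comparison added after the values were seen, day 6 gave 3 of 6 members higher in WT, where 21.4% of 10093 genes rose. *Stat4* had the largest of these changes (3.54 ± 0.37, adjusted p = 0.000479), with *Stat2* at 1.90 ± 0.32 (adjusted p = 0.00305) and *Stat5a* at 1.38 ± 0.30 (adjusted p = 0.00836), and *Stat5b* did not pass (-0.44 ± 0.23, adjusted p = 0.143). Without replicate 1 of both days the *Stat5a* change was 1.40 (adjusted p = 0.0548). In DKI, *Stat2* rose (2.23 ± 0.37, adjusted p = 0.00555) and *Stat5b* fell (-1.04 ± 0.19, adjusted p = 0.00715), where 14.1% of 9995 genes rose and 26.0% fell. Without replicate 1 of both days the *Stat2* change was 1.63 (adjusted p = 0.0190). *Stat4* (0.67 ± 0.53, adjusted p = 0.334) and *Stat5a* (-0.23 ± 0.21, adjusted p = 0.404) did not pass there. The median change of all genes tested in DKI was -0.23, and under centring 1987 genes were called higher and 1741 lower in place of 1407 and 2600. Without DKI day 6 replicate 2 the DKI *Stat4* change was 1.27 (adjusted p = 0.0228).

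**Figure D4:**
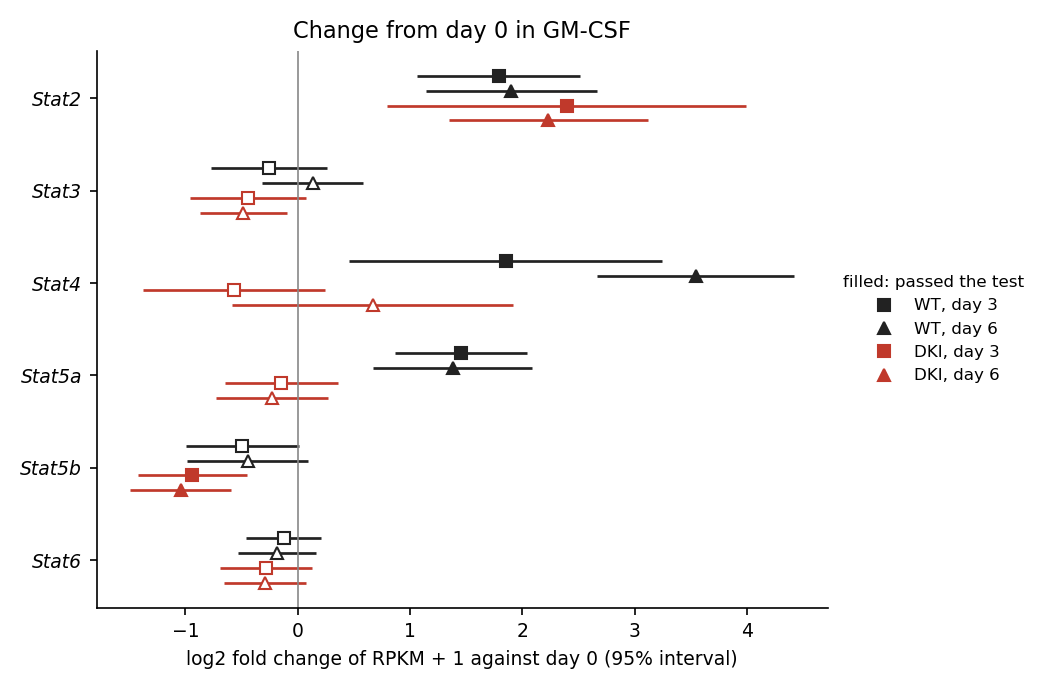
Log2 fold change of RPKM + 1 against day 0 for each STAT gene, with its 95% interval from limma, in WT (black) and DKI (red) on day 3 (squares) and day 6 (triangles). Filled symbols passed the test: *Stat2* in all 4 comparisons, *Stat4* and *Stat5a* in WT, and *Stat5b*, which fell, in DKI.

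Whether the genotypes differed in their change over time was tested as a genotype by time term. From day 0 to day 3, 1 of 6 members passed, where 1.70% of 10212 genes were called lower. *Stat5a* changed by 1.60 less on the log2 scale in DKI than in WT cells (-1.60 ± 0.34, adjusted p = 0.0326). *Stat4* had a larger term that did not pass (-2.42 ± 0.75, adjusted p = 0.128), but it passed without WT day 3 replicate 3 (-3.09, adjusted p = 0.0175), and it was -1.82 without WT day 3 replicate 2. The *Stat5a* call was lost without any one of WT day 0 replicates 1 and 2, DKI day 0 replicates 1 to 3, WT day 3 replicates 2 and 3 or DKI day 3 replicate 1, with adjusted p from 0.0515 to 0.0870. The *Stat5b* term did not pass (-0.45 ± 0.30, adjusted p = 0.535), so its fall in DKI cells was not shown to differ from its change in WT cells.

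From day 0 to day 6, a term also added after the values were seen, 0 of 6 members passed, where 2.80% of 10353 genes were called (93 higher and 197 lower, or 156 and 163 under quantile normalization), and *Stat5a* (-1.61 ± 0.39, adjusted p = 0.0550) and *Stat4* (-2.87 ± 0.71, adjusted p = 0.0596) were close to the limit. *Stat4* and *Stat5a* both passed without WT day 6 replicate 2 (adjusted p = 0.0313 and 0.0190) or DKI day 6 replicate 2 (0.0361 and 0.0328), and *Stat4* also without DKI day 6 replicate 3 (0.0292). With the replicate number as a block, *Stat4* (adjusted p = 0.00188), *Stat5a* (0.0359), *Stat5b* (0.0426) and *Stat3* (0.0473) passed. Without the block the adjusted p was 0.34 for *Stat5b* and 0.203 for *Stat3*. From day 3 to day 6, 0 of 6 members passed, against 0% of 9985 genes in limma, of which 89 had an unadjusted p under 0.05.

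The chromosome 11 surroundings of the knockin genes were examined next. Besides *Stat3*, the table holds 15 genes whose lower coordinate lies within 200 kb of the *Stat5b* and *Stat5a* pair. Of these, 9 were tested on days 0 and 3 and 10 on day 6, and 0 were called on any day, against 7.42% of genes called in either direction on day 3 and 7.54% on day 6. Their log2 differences ran from -0.28 (*Coasy*) to 1.86 (*Dhx58*) on day 3 and from -0.36 (*Dnajc7*) to 1.74 (*Dhx58*) on day 6. *Dhx58*, an interferon-stimulated RNA sensor gene, was at 10.4 RPKM on average in WT and 52.1 in DKI on day 3 (adjusted p = 0.189). *Naglu*, a lysosomal enzyme gene, came closest to the limit on day 6 (29.8 against 65.7 RPKM, log2 1.09 ± 0.25, adjusted p = 0.0508). With the replicate number as a block, *Naglu* (adjusted p = 0.0454) and *Atp6v0a1*, a proton pump subunit gene (log2 0.93, adjusted p = 0.0413), passed on day 6. *Naglu* also passed under quantile normalization (0.0422) and *Atp6v0a1* under centring on the library median (0.0362).

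**Figure D5:**
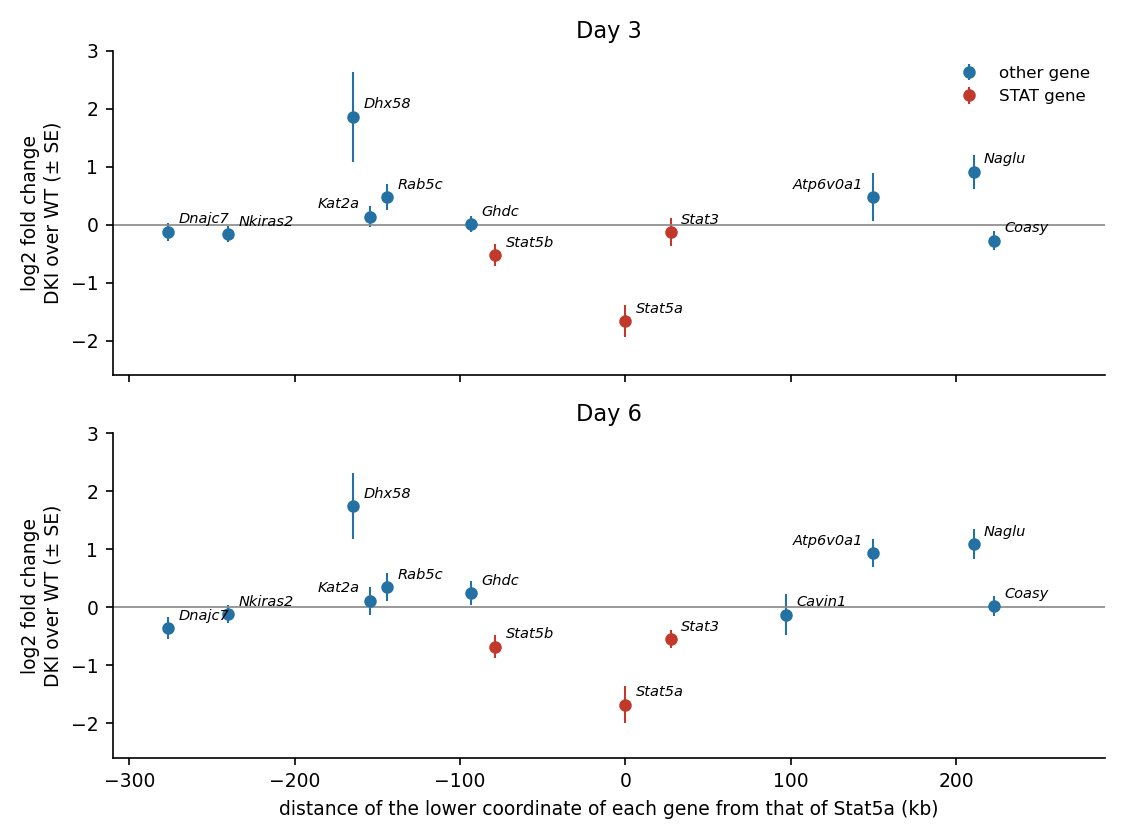
Log2 fold change (DKI over WT, ± SE) of the tested genes around the STAT5 pair against the distance of their lower coordinate from that of *Stat5a* in kb, on day 3 (top) and day 6 (bottom). STAT genes are red and the other genes blue. *Stat5a* is the lowest point on both days (-1.67 and -1.68) and *Dhx58* the highest (1.86 and 1.74).

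Upstream of the STAT proteins, 1 of the 4 JAK kinase genes was lower in DKI on both days, where 4.21% of all genes tested were called lower on day 3 and 4.82% on day 6, and 3.21% and 2.72% higher. *Jak2*, the kinase bound to the GM-CSF receptor, was at 302 RPKM in WT and 70.1 in DKI on day 3 (log2 -2.10 ± 0.18, adjusted p = 0.00477) and at 396 and 75.0 RPKM on day 6 (-2.38 ± 0.32, adjusted p = 0.0162). Without replicate 1 of both genotypes the day 6 *Jak2* difference was -2.18 and did not pass (adjusted p = 0.134). *Tyk2*, the partner kinase of the interferon and IL-12 receptors, had a log2 difference of -0.66 (adjusted p = 0.138) and -0.999 (0.0805), and neither *Jak1* (0.39 and 0.19) nor *Jak3* (0.21 and -0.35) passed. Of the 3 GM-CSF receptor genes, *Csf2rb2* passed (-0.92, adjusted p = 0.0405, and -0.81, adjusted p = 0.0410), but it is a near copy of *Csf2rb*, so that its reads are uncertain, and with the replicate number as a block its adjusted p was 0.0711 and 0.0667. *Csf2rb* (-0.67 and -0.71) and *Csf2ra* (-0.75 and -0.02) did not pass. Among 20 other cytokine receptor genes, of which 15 were tested on day 3 and 17 on day 6, *Il10rb* (1.39 and 1.44) and *Csf3r* (3.14 and 2.98), receptor genes for IL-10 and G-CSF, were higher in DKI on both days, and none was lower. With the block, *Il10rb* had an adjusted p of 0.0690 and 0.0564, and without replicate 1 of both genotypes neither *Il10rb* (0.194) nor *Csf3r* (0.120) passed on day 6. *Csf3r* is also a neutrophil gene, and the summed neutrophil markers given above were higher in DKI on day 3 without overlap. Their part in its difference was not tested. The median log2 difference of this list was 0.59 on day 3 and 0.60 on day 6.

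The inhibitors of the pathway were lower in DKI where they passed, against the 4.21% and 4.82% of all genes tested that were. Of the 8 genes of the SOCS family, which switch off JAK signals, *Cish* (-2.28 and -2.47) and *Socs2* (-4.14 and -4.30) were lower on both days and *Socs1* on day 6 (-1.64), with none higher and a median of -0.76 and -0.87. With replicate 1 of both genotypes left out, the day 6 calls of *Cish* (adjusted p = 0.0866), *Socs2* (0.0866) and *Socs1* (0.125) were lost, and *Socs1* passed on day 3 (-1.57, adjusted p = 0.0256). Of 13 other inhibitors, 0 passed on day 3 and 2 on day 6, the STAT inhibitor gene *Pias3* (-0.76) and the JAK phosphatase gene *Ptpn1* (-0.93). Neither call held with the block (adjusted p = 0.0562 and 0.0687) or under centring on the library median (0.0779 and 0.0617), and under the block the SOCS gene *Socs3* (-1.28, adjusted p = 0.0291) and, of the 13, the ubiquitin ligase gene *Cblb* (-0.93, adjusted p = 0.0316) passed on day 6. None of the 7 partner genes passed on either day, among them *Irf9*, which encodes the partner of STAT2 (0.18 and 0.12).

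Known target genes of single members were counted in the same way, against 4.21% and 4.82% of all genes tested called lower and 3.21% and 2.72% called higher on days 3 and 6. Of the 9 STAT5 targets listed, 7 were tested, and 4 were lower on day 3 (*Cish*, *Socs2*, *Ccnd2* at -2.08 and *Bcl6* at -1.67) and 2 on day 6 (*Cish* and *Socs2*), with 0 higher and a median of -1.67 and -1.08. *Cish* and *Socs2* also stand in the SOCS list, and *Bcl6* is known as a gene that STAT5 represses. *Ccnd2* did not pass with the block (adjusted p = 0.0623) or without replicate 1 of both genotypes (0.0680). Of the 9 STAT6 targets, 3 passed as higher and 3 as lower on day 3, and 1 as higher and 3 as lower on day 6. The rest did not pass, and *Stat6* itself did not pass on either day. On day 3, those higher included the macrophage genes *Mrc1* (4.45) and *Retnla* (6.02), and *Ccl17* (-7.13), *Ccl22* (-4.52) and *Irf4* (-2.92) were lower. On day 6, *Mrc1* (3.29) was higher and *Ccl17* (-6.73), *Ccl22* (-4.33) and *Irf4* (-2.66) lower. When replicate 1 of both genotypes was left out, *Retnla* (adjusted p = 0.109) and *Ccl22* (0.0863) did not pass on day 3, nor *Mrc1* (0.0582), *Ccl22* (0.0663) and *Irf4* (0.112) on day 6. Of the 8 STAT3 targets, 0 passed on day 3 and *Fos* was higher on day 6 (3.03), though not without replicate 1 of both genotypes (adjusted p = 0.138). With the block, *Fos* (adjusted p = 0.0400) and *Il1rn* (0.0208) also passed as higher on day 3 and *Socs3*, listed here too, as lower on day 6. Of the 10 targets of STAT2 and IRF9, 0 passed on day 3, at a median of 3.60, and *Irf7* (5.13), *Oasl2* (3.83) and *Rsad2* (3.77) were higher on day 6, at a median of 3.51, with *Isg15* (adjusted p = 0.0474) and *Oas1a* (0.0407) added by the block. Without replicate 1 of both genotypes, *Rsad2* was at 3.04 and did not pass (adjusted p = 0.110), whereas *Isg15* (2.53 for 3.37, adjusted p = 0.0497) and *Ifit1* (2.50 for 3.45, adjusted p = 0.0461) did. The DKI libraries other than replicate 1 had summed levels of these 10 genes of 563 and 135 RPKM on day 3 and 205 and 269 RPKM on day 6. These were above the WT MDC range of 32.3 to 109 RPKM, as the DKI replicate 1 values were. Monocytes of both genotypes had 72.8 to 184 RPKM on day 0, a range that holds the 135 RPKM of DKI day 3 replicate 3. The part of *Stat2* in this was not tested.

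The genes whose levels followed each member most closely over the 18 libraries were found by Pearson's r of log2(RPKM + 1) across 10416 genes. The values are descriptions, since the libraries share genotypes and days. For *Stat2* they were *Fbxw17* (r = 0.955), *Trim21* (0.951) and *Herc6* (0.943). *Stat4* was closest to *Adcy6* (0.964), *Slc4a8* (0.960) and *Slc22a23* (0.959), and *Stat5a* to *Slc26a10* (0.965), *Snd1* (0.958) and *Mob3a* (0.954). *Stat5b* followed *Pmaip1* (0.948), *Gtf2b* (0.931) and *Kif21b* (0.931), *Stat3* followed *Rassf2* (0.922), *Nuak2* (0.871) and *Zfp809* (0.861), and *Stat6* followed *Rela* (0.916), *Zswim4* (0.909) and *Bbc3* (0.906). Among the members themselves the highest r was that of *Stat4* with *Stat5a* (0.77), and *Stat5a* with *Stat5b* gave 0.30 over the same 18 libraries.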

How the data were processed

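RNA-seq of 18 libraries was used. The authors used Subread for alignment of the single-end reads to mm10 and featureCounts for counting on RefSeq genes, per the labels and methods, and deposited 1 column of RPKM values per library. Versions, strandedness and the handling of reads matching several genes are not given in the sources used here. Groups and replicate numbers came from the sample labels. The members and gene lists were chosen with earlier results of these data known.

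The scale was log2(RPKM + 1), on which fold changes of low genes come out too small. Genes with a mean above 2 RPKM in at least one compared group were fitted with limma 3.58.1 (R 4.3.3, with a mean-variance trend in eBayes) on the libraries compared, and called at a Benjamini-Hochberg adjusted p under 0.05 over all fitted genes and a fold above 1.5. There were 9 planned comparisons and 3 added after the values were seen. The steps were tested on simulated data. Named genes were the 6 members, called genes of the pathway lists (up to 6 per list and direction, and all JAK and GM-CSF receptor genes), genes within 200 kb of the STAT5 pair, and the 3 genes most like each member, except that 1 result is not reported here. *Dhx58*, *Naglu*, *Atp6v0a1*, *Coasy*, *Dnajc7*, *Irf9*, *Il1rn*, *Isg15*, *Ifit1*, *Oas1a*, *Socs3*, *Cblb* and the marker genes named singly were picked from those lists after their values were seen. Symbols and positions came from RefSeq (GRCm38.p6, the patch release of mm10), where 20082 gene identifiers matched and 216 did not.

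RPKM holds no read totals. Depth was estimated from the smallest steps between values of 1168 single-exon receptor genes (4 to 13 genes per library gave the step). With it, whole reads in all 18 libraries (tolerance 0.05 reads) were recovered for 10417 of 10417 genes searched (100%), and limma voom on these reads was run as an alternative chosen after seeing the data. It called 522 genes on day 3 and 464 on day 6.

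Same-numbered WT and DKI libraries of a day deviated together from their group means (correlations over genes of 0.69 to 0.87 on day 0, 0.16 to 0.37 on day 3 and 0.34 to 0.41 on day 6), so the label numbers pair the genotypes within a day. Same-numbered day 3 and day 6 libraries also correlated, at 0.12 to 0.68 in WT and 0.32 to 0.74 in DKI. Libraries of different numbers reached 0.15 and 0.36 there. Days 3 and 6 are therefore not independent repeats of each other. With the number as a block, 0 genes were called from day 3 to day 6 in either genotype. The series description speaks of 3 independent experiments, but the labels do not tie a library to an animal, so the p-values measure the spread between these libraries. Figures were drawn in Python 3.11.15 with matplotlib 3.10.9.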

Additional observations from a re-analysis of the deposited data

Results flagged for a closer look

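*Stat5a* was set apart because its change from day 0 to day 3 differed between the genotypes by the test of the genotype by time term, at -1.60 on the log2 scale (adjusted p = 0.0326 in limma). Each WT day 3 library lay above each WT day 0 library, and the DKI libraries of the same days overlapped. The term was tested for all 6 members over 3 pairs of days, and *Stat5a* from day 0 to day 3 was the 1 that passed.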

How the results depend on the processing

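Without the filter on mean RPKM, where more genes are tested, 0 members passed between genotypes on day 3 or day 6, 0 in the day 0 to day 3 genotype by time term and 1 in DKI from day 0 to day 3. With all 18 libraries in one fit, 2 members passed between genotypes on day 3, 0 in the day 0 to day 3 term and 1 in the day 0 to day 6 term. Between genotypes on day 6, 1 member passed under centring on the library median, 1 under quantile normalization, 1 in voom on recovered reads and 0 without replicate 1 of all groups, and the day 0 to day 3 term gave 0 in voom and 0 without replicate 1 of all groups. The replicate block left 1 member between genotypes on day 6, gave 4 in the day 0 to day 6 term and left 1 in DKI from day 0 to day 3, where the libraries share only a number (correlations of -0.014 to 0.18). It changed no other call of the 6 members. Of the pathway and neighbouring genes called between genotypes, 14 on day 3 and 17 on day 6, the block lost 3 and 4 and added 2 and 7, centring lost 0 and 3, and leaving out replicate 1 of all groups lost 5 and 14, with 0 turned in direction. The cause was not tested.

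Counts over all genes moved as well. On day 3, 723 genes were called, but 358 without the filter, 369 without replicate 1 of all groups and 1359 with all 18 libraries. On day 6, 742 were called, but 187, 38 and 1573 under these settings and 464 in voom. The genotype by time terms called 297 genes to day 3 and 290 to day 6, but 1040 and 1401 with the block and 90 and 47 in voom. With all 18 libraries in one fit, 6 genes were called on day 0 and 16 in WT from day 3 to day 6, against 0 and 0. DKI day 6 against day 0 called 4007 genes, or 2563 without replicate 1 of all groups. Without replicate 1 of all groups the terms called 171 and 61. Leaving out 1 library gave 197 to 715 genes on day 3, with 197 to 216 without any one WT library and 415 and 432 without DKI replicates 2 and 3. Day 6 gave 90 to 984, with 90 to 251 without WT or DKI replicate 1 or 3. The terms ran from 125 to 336 and from 117 to 664, both lowest without DKI day 0 replicate 2. That library also gave the lowest DKI counts against day 0, 1976 for 3394 genes on day 3 and 2663 for 4007 on day 6.

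Leaving out 1 library gave 0 to 1 members between genotypes on day 3, 0 to 2 on day 6, 1 to 3 in DKI from day 0 to day 3, 0 to 1 in the day 0 to day 3 term and 0 to 2 in the day 0 to day 6 term. An arm of 2 libraries shares the variance estimate of the fit. The day 0 difference of the *Stat5a* to *Stat5b* log2 ratio ran from -0.0509 to 0.0748, around 0.

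Values near 0 turned. *Stat2* between genotypes was -0.228 on day 3 and -0.131 on day 6 without replicate 1 of all groups, and -0.0476 to 1.33 on day 3 leaving out 1 library. *Stat3* on day 3 ran from -0.288 to 0.0416 in the same way, and *Stat5a* in DKI from day 0 to day 3 from -0.26 to 0.0259. Under centring on the library median and quantile normalization, *Stat6* on day 6 was 0.0538 and 0.0131, and *Stat5a* in DKI was 0.0205 and 0.0187 on day 3 and 0.00588 and 0.00177 on day 6, each against day 0. *Stat4* rested on as few as 91 reads in a library, and 3 libraries a group limit all p-values.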
